A study of Mus musculus with 8 samples.

Results

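The genes described here encode the proteins that decide how the capped end of an mRNA is read by the ribosome: 2 inhibitors that bind the cap-binding protein (Eif4ebp1, Eif4ebp2), the 3 subunits of the eIF4F complex (Eif4e, Eif4g1, Eif4a1), the helicase cofactor Eif4b, the S6 kinase Rps6kb1, the helicase inhibitor Pdcd4 and the mRNA-binding repressor Larp1. They were chosen by name, as the rows of the count table whose Ensembl IDs carry these symbols in GENCODE M21, and all 9 were found among the 21859 gene IDs. All 9 also passed the filter on low counts that left 10729 genes for testing. The samples were 8 cultures of PER-M60, a mouse line labelled as leukaemia cells. Of these, 4 grew in control medium and 4 in medium conditioned by osteoclasts, the cells that resorb bone. RNA was sequenced in bulk, and the labels give no genotype, culture time or batch. Because all cultures are of 1 line and are not said to be independent, the p-values measure the spread between these cultures only.

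Cap-dependent translation starts when eIF4E binds the cap of an mRNA and, through the scaffold eIF4G, brings in the RNA helicase eIF4A, whose activity eIF4B stimulates. The 4E-BP proteins occupy the site on eIF4E that eIF4G needs, and the kinase complex mTORC1 releases them by phosphorylation. S6 kinase, another mTORC1 substrate, phosphorylates eIF4B and PDCD4, and the latter otherwise blocks eIF4A. LARP1 holds back mRNAs that begin with a run of pyrimidines, chiefly those of ribosomal proteins and elongation factors, when mTORC1 is off. Phosphorylation and protein amounts were not measured here, and the counts report mRNA only.

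In osteoclast-conditioned medium the mRNAs of the 4 translational inhibitors among the 9 genes were higher and those of the 3 eIF4F subunits were lower. Eif4ebp1 rose by 34.5%, Pdcd4 by 20.2%, Larp1 by 13.5% and Eif4ebp2 by 9.93%. Eif4e fell by 13.5%, Eif4a1 fell by 8.00% and Eif4g1 fell by 7.59%. The helicase cofactor Eif4b went the other way from eIF4F and rose by 7.05%, while Rps6kb1 did not pass the test. In bulk RNA a change in every cell and a change in the number of cells with the transcript cannot be told apart. In all, 8 of the 9 genes passed edgeR's quasi-likelihood test at a Benjamini-Hochberg adjusted p of 0.05, 5 higher and 3 lower, against 30.5% of all tested genes, 15.7% higher and 14.8% lower. The shares of all tested genes were not matched for expression level, and 8 of the 9 genes lay at the 85.8th percentile of level or higher. The samples of the media did not overlap in the same 8 genes, where this held for 28.2% of all tested genes, and 24.2% of all tested genes met both criteria. Their changes were small, under 1.2-fold in 7 of the 9. The median absolute log2 fold change was 0.14 for these genes and 0.09 for all tested genes. The genes were picked with earlier results of these data known, so that count describes them and is not independent evidence.

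**Figure D1:**
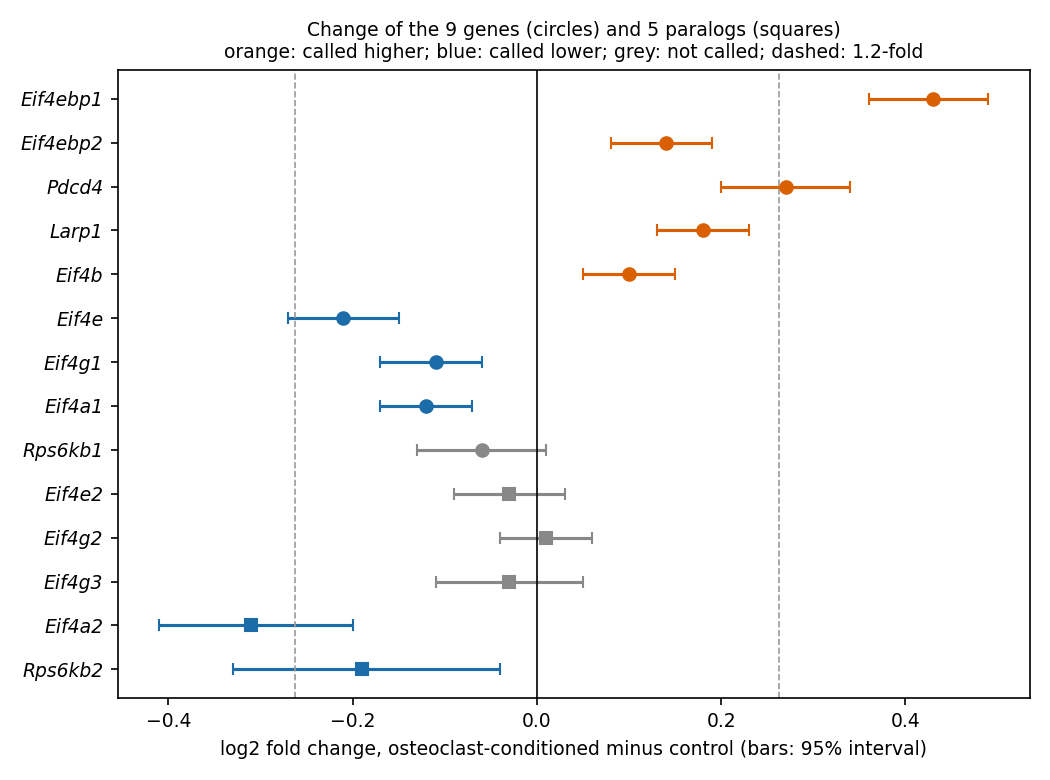
Log2 fold change (x axis, osteoclast-conditioned minus control medium) of the 9 genes (circles) and 5 measured paralogs (squares), with 95% intervals from the edgeR fit; dashed lines mark 1.2-fold. Eif4ebp1 is the only gene whose whole interval (0.36 to 0.49) lies beyond 1.2-fold, and the interval of Rps6kb1 (-0.13 to 0.01) covers 0.

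The cultures gave 15391754 to 21637966 counts each, and the 9 genes had between 1427 and 29313 counts in a sample. The label of the cells was checked against markers. All 5 leukocyte markers (Ptprc, Coro1a, Laptm5, Cd52 and Cd53) were expressed, with 2 called higher, as were all 7 B-lineage markers summed here (Cd79a, Cd79b, Pax5, Ebf1, Vpreb1, Igll1 and Blnk). The B-lineage sum was 3534 to 3579 normalised CPM (counts relative to library size, scaled between libraries) in control medium and 3808 to 3845 in osteoclast-conditioned medium, with 5 markers called higher and 0 lower, and its part in the results was not tested. Of 10 osteoclast markers, 2 were tested (Acp5 and Itgb3) and 1 of these was called lower, the summed level was 35.8 to 37.2 in control and 34.4 to 37.9 in conditioned medium, and Ocstamp and Dcstamp had 0 counts. The 7 macrophage markers summed to 20.6 to 22.01 and 21.4 to 25.1 in the respective media, with 1 called higher, and Itgam and Cd14 at 0 (Itgam lies inside another listed gene, so its 0 gives no measure). The 5 T-cell and 5 stromal markers each summed to at most 0.175 in any sample, with Cd3g, Cd8a, Col1a2, Col3a1 and Pdgfra at 0. Mitochondrial genes took 0.903 to 1.16% of counts in control medium and 1.16 to 1.44% in conditioned medium, and their part in the results was not tested.

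The order of the mRNA levels was compared per length, as normalised CPM per kilobase of merged exons. In control medium Eif4b was highest at 255 ± 1.87, followed by Eif4g1 at 193 ± 5.68, Eif4a1 at 171 ± 4.42 and Larp1 at 107 ± 0.849 (SD, n = 4 here and below). Eif4ebp2 had 64.7 ± 1.25, Eif4ebp1 43.4 ± 1.02, Eif4e 34.9 ± 0.638, Pdcd4 32.7 ± 1.38 and Rps6kb1 10.9 ± 0.315. Neighbours in this order did not overlap, except Eif4e (34.2 to 35.6) and Pdcd4 (31.8 to 34.8). In osteoclast-conditioned medium that pair stood in the other order, with Pdcd4 at 39.4 ± 1.17 and Eif4e at 30.2 ± 0.467, and no sample of Pdcd4 was below one of Eif4e. The cap-binding subunit was thus the least abundant mRNA of eIF4F in both media, and 8 of the genes lay at the 85.8th percentile of tested genes or higher, with Rps6kb1 at the 57.8th. Merged exons count every annotated isoform, so such levels between genes are approximate.

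**Figure D2:**
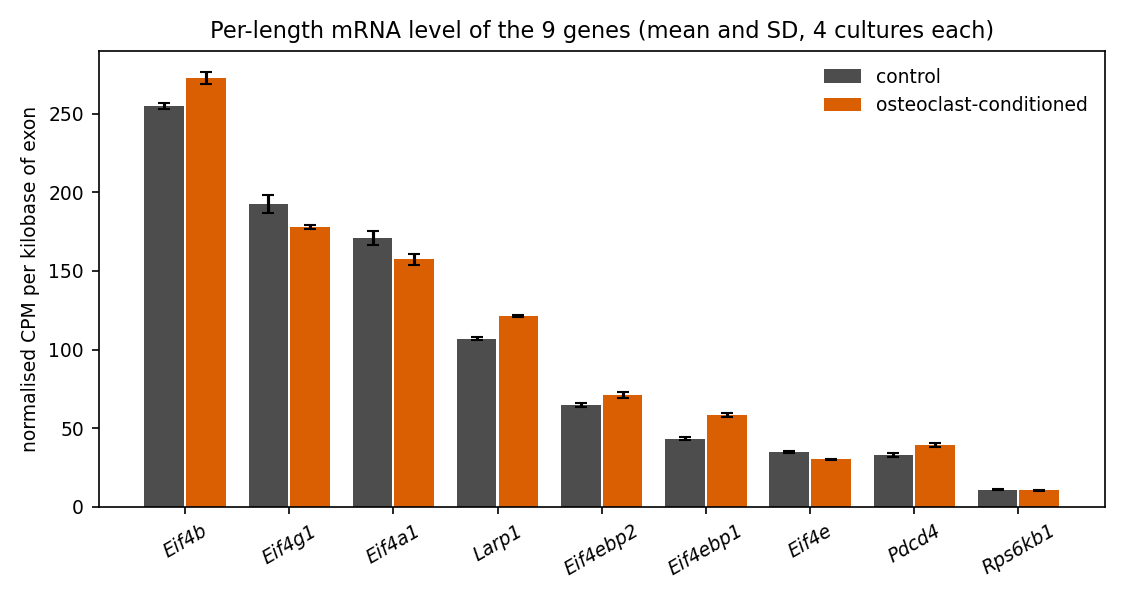
Per-length mRNA level (y axis, normalised CPM per kilobase of merged exon, from 0) of the 9 genes in each medium; bars are means and whiskers the SD of 4 cultures. Eif4b, Eif4g1 and Eif4a1 stand highest, and Eif4e and Pdcd4 change order between the media.

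Eif4ebp1 (ENSMUSG00000031490; chromosome 8, 27260329 to 27276674 in GRCm38, plus strand) encodes 4E-BP1, a phosphorylation-controlled inhibitor of eIF4E whose gene is a known target of the stress factor ATF4. It had 94.6, 92.8, 98.0 and 96.2 normalised CPM in control replicates 1 to 4, and 126, 125, 128 and 133 in osteoclast-conditioned replicates 1 to 4. The groups were widely apart: the lowest conditioned culture stood well above the highest control culture. The log2 fold change was 0.43 (SE 0.03, adjusted p = 1.28e-11, edgeR), the 521st of 10729 genes by absolute size. Among the 9 genes it alone also passed an edgeR test against a change of 1.2-fold (adjusted p = 0.000184), which 2.12% of all tested genes did.

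Eif4ebp2 (ENSMUSG00000020091; chromosome 10, 61428491 to 61452661, minus strand), the second inhibitor of the family, had 374, 381, 364 and 377 normalised CPM in control medium. In conditioned medium it had 411, 404, 427 and 402. Every conditioned culture was above every control culture, by a smaller margin than for Eif4ebp1. The log2 fold change was 0.14 (SE 0.03, adjusted p = 0.000214, edgeR). Because Eif4ebp1 rose more, its part of the per-length sum of the family went from 40.2% ± 0.994 to 45.1% ± 1.03. The third family member, Eif4ebp3, had 0 counts in every sample, but its whole span lies inside another listed gene (AC115631.1), so its counts give no measure of it.

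Eif4e (ENSMUSG00000028156; chromosome 3, 138526179 to 138559696, plus strand), the cap-binding protein itself, had 205, 214, 212 and 207 normalised CPM in control medium. The conditioned cultures had 182, 185, 180 and 178. All 4 conditioned values were below all control values, with a log2 fold change of -0.21 (SE 0.03, adjusted p = 7.36e-07, edgeR).

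Eif4g1 (ENSMUSG00000045983; chromosome 16, 20668313 to 20692884, plus strand), the scaffold, had 1399, 1352, 1447 and 1429 normalised CPM in control medium and 1311, 1303, 1292 and 1294 in conditioned medium. Control replicate 2 was the lowest control culture and still lay above all conditioned ones. Its log2 fold change was -0.11 (SE 0.03, adjusted p = 0.001, edgeR). Eif4a1 (ENSMUSG00000059796; chromosome 11, 69666936 to 69672423, minus strand), the helicase, had 730.0, 768, 738 and 726 in control medium, where replicate 2 was the highest. It had 685, 700, 661 and 680.1 in conditioned medium, again without overlap, and a log2 fold change of -0.12 (SE 0.03, adjusted p = 0.000793, edgeR). The per-length ratio of Eif4a1 to Eif4g1 was 0.888 ± 0.0475 in control and 0.883 ± 0.0173 in conditioned medium, and its ranges overlapped. Ratios of both to Eif4e were higher in conditioned medium, at 5.90 ± 0.0716 against 5.52 ± 0.213 for Eif4g1 and 5.21 ± 0.0894 against 4.90 ± 0.0728 for Eif4a1, since Eif4e fell more. Eif4a1 has a closely related paralog and Eif4e and Eif4a1 have processed copies in the genome; how reads matching several places were counted is not given in the sources used here, so these counts carry that uncertainty. Of the exons of Eif4a1, 6.62% also hold annotated small RNAs on the same strand.

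**Figure D3:**
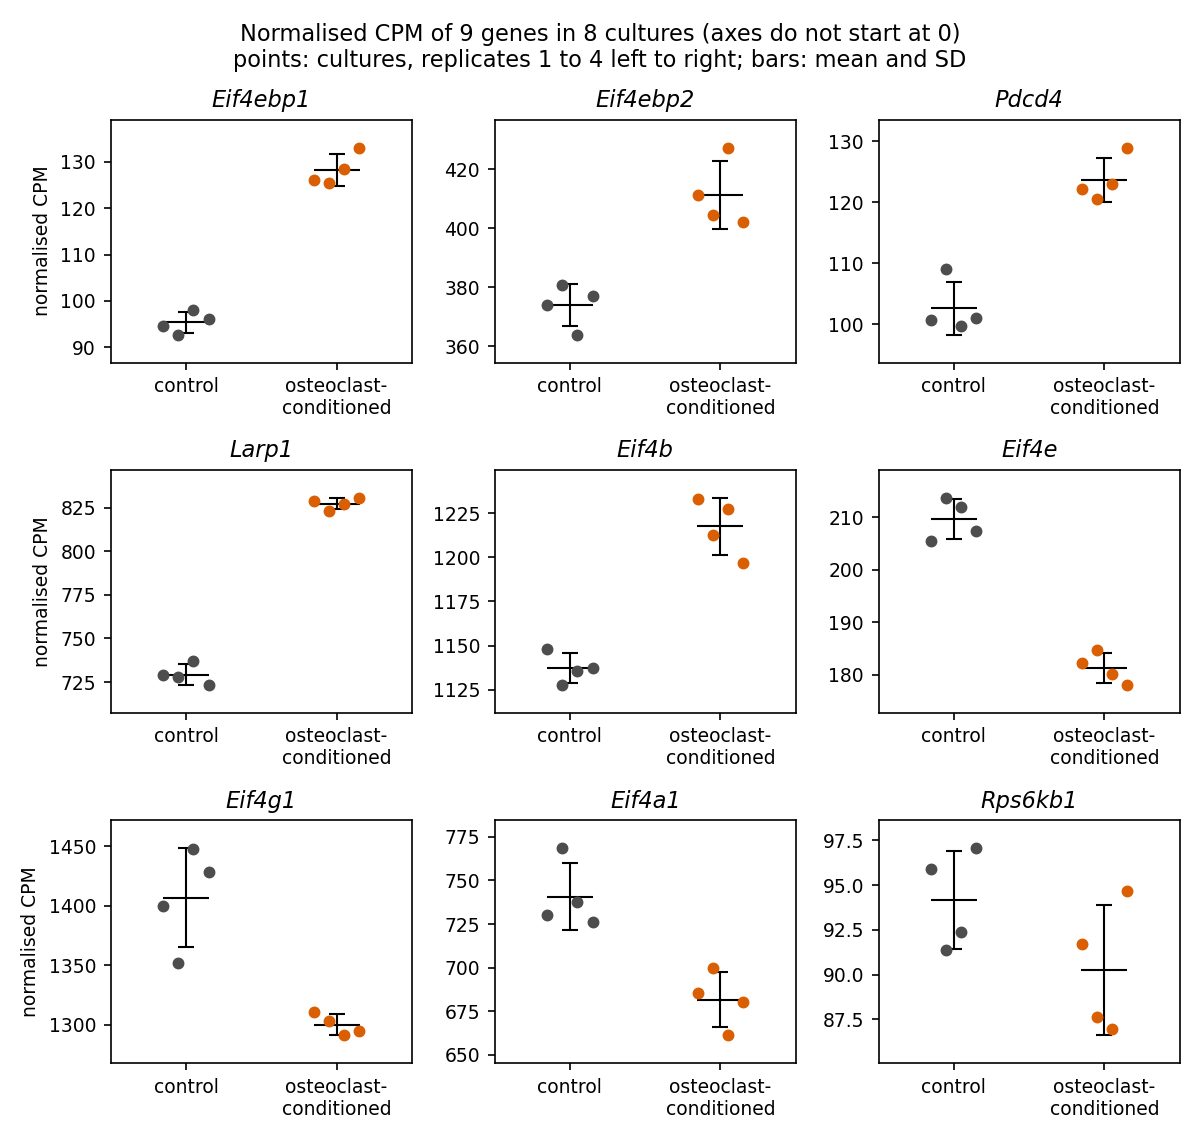
Normalised CPM (y axis, not from 0) of each of the 9 genes in the 4 control and 4 osteoclast-conditioned cultures; points are cultures and bars the mean and SD. The groups are apart in every panel except that of Rps6kb1, where they overlap.

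Promoter windows of the 3 eIF4F genes that fell are shown because each gene had a window with a short motif that the windows of the other members lacked. The pattern was noticed in these genes and is given as a description. The hexamer CACGTG, an E-box of the kind bound by MYC and related factors, was searched on both strands (it reads the same on each) in RefSeq windows of 300 bases, 250 before and 50 after an annotated start (GRCm38.p6). Windows existed for 8 of the 9 genes, 10 in all, with none for Eif4ebp1. The bases before the start are printed 5′ to 3′ in the direction of the gene, with CACGTG in capitals.
Eif4e (chr3:138527018-138527267, plus strand): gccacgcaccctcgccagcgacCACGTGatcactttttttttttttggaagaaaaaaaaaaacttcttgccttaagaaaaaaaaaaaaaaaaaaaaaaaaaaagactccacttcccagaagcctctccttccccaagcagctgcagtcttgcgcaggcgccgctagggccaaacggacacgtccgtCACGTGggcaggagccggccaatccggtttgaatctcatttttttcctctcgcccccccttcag
Eif4g1 (chr16:20672477-20672726, plus strand): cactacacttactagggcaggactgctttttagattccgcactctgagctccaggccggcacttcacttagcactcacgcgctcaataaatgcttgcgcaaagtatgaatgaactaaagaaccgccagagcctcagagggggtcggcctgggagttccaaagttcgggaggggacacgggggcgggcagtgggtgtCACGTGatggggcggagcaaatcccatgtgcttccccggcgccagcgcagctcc
Eif4a1 (chr11:69672424-69672673, minus strand): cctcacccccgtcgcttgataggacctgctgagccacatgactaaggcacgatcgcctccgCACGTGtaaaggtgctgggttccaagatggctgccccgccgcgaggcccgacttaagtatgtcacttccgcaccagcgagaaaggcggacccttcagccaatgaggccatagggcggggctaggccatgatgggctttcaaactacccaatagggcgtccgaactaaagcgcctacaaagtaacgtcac

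Eif4e held the hexamer at -228 and -64 from its second annotated start, counted at the first base of the match, and not at its first one. Eif4g1 held it at -54 and, beyond the stretch printed, at 16 bases into the transcript. Eif4a1 held it at -189. The windows of Eif4ebp2, Eif4b, Rps6kb1, Pdcd4 and Larp1 did not contain it. The second Eif4e start (138527268) and the only Eif4g1 start (20672727) lie inside their annotated genes, which begin at 138526179 and 20668313. No window covered the beginning of the annotated Eif4g1 gene. Across all 32851 windows, 7.15% held CACGTG, and of tested genes with a window 12.1% did. Of all tested genes with a window, the hexamer was present in 152 of 1270 called lower, 172 of 1326 called higher and 711 of 5951 not called. Among pathway list genes (other translation factors and regulators) with a window it was present in 4 of 15 called higher (Mknk1, Eif3f, Eef2k and Eef2), 1 of 9 called lower (Gigyf2) and 7 of 29 not called. A second motif, TGATGNAA, the form of site bound by ATF4 with C/EBP partners, was in none of the 10 windows, in 3.97% of all windows and in 2.75% of tested genes with a window. These are matches of letters within these windows and not measured sites.

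Pdcd4 (ENSMUSG00000024975; chromosome 19, 53892231 to 53929860, plus strand) encodes the inhibitor that binds eIF4A. It had 101, 109, 99.8 and 101 normalised CPM in control medium and 122, 121, 123 and 129 in conditioned medium. Control replicate 2 stood above the other control cultures and below every conditioned one. The log2 fold change was 0.27 (SE 0.03, adjusted p = 4.48e-07, edgeR). Larp1 (ENSMUSG00000037331; chromosome 11, 58009064 to 58062034, plus strand) had 729, 728, 737 and 723 in control medium and 829, 823, 827 and 830.4 in conditioned medium. Its replicates in conditioned medium were the tightest of the 9 genes relative to the level, and the groups did not overlap. Its log2 fold change was 0.18 (SE 0.02, adjusted p = 7.80e-07, edgeR).

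Eif4b (ENSMUSG00000058655; chromosome 15, 102073773 to 102097173, plus strand), the activator of eIF4A and a substrate of S6 kinase, had 1148, 1128, 1136 and 1137 normalised CPM in control medium. It had 1233, 1213, 1227 and 1197 in conditioned medium, all above the control cultures. The log2 fold change was 0.10 (SE 0.02, adjusted p = 0.00239, edgeR). The per-length ratio of Eif4b to the helicase mRNA, Eif4a1, was 1.49 ± 0.0467 in control and 1.73 ± 0.0517 in conditioned medium.

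Rps6kb1 (ENSMUSG00000020516; chromosome 11, 86498871 to 86544805, minus strand), which encodes S6 kinase 1, had 95.9, 91.4, 92.4 and 97.1 normalised CPM in control medium and 91.7, 87.6, 87.0 and 94.7 in conditioned medium. The groups overlapped, with conditioned replicate 4 above control replicates 2 and 3. The log2 fold change was -0.06 (95% interval -0.13 to 0.01, adjusted p = 0.202, edgeR). A part of its exons (1.79%) is shared with Rnft1 on the opposite strand, and use of strand in counting is not given in the sources used here.

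Put as ratios within each culture, Eif4ebp1 and Eif4ebp2 relative to Eif4e, and Pdcd4 relative to Eif4a1, were higher in every conditioned sample. No such ratio was made for Larp1 and its target mRNAs. Per length, Eif4ebp1 mRNA was 1.26, 1.19, 1.27 and 1.27 times Eif4e mRNA in control replicates 1 to 4. In conditioned replicates 1 to 4 the ratio was 1.89, 1.86, 1.95 and 2.04. The mean went from 1.25 ± 0.0384 to 1.94 ± 0.0813, a 1.55-fold difference. For Eif4ebp2 to Eif4e it went from 1.85 ± 0.05 to 2.36 ± 0.0780, and for both inhibitors summed from 3.10 ± 0.0635 to 4.29 ± 0.132. Pdcd4 to Eif4a1, the inhibitor and the helicase it binds, went from 0.192 ± 0.00379 to 0.251 ± 0.0107. None of these ratios overlapped between media. They restate the changes of the single genes and were not tested.

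**Figure D4:**
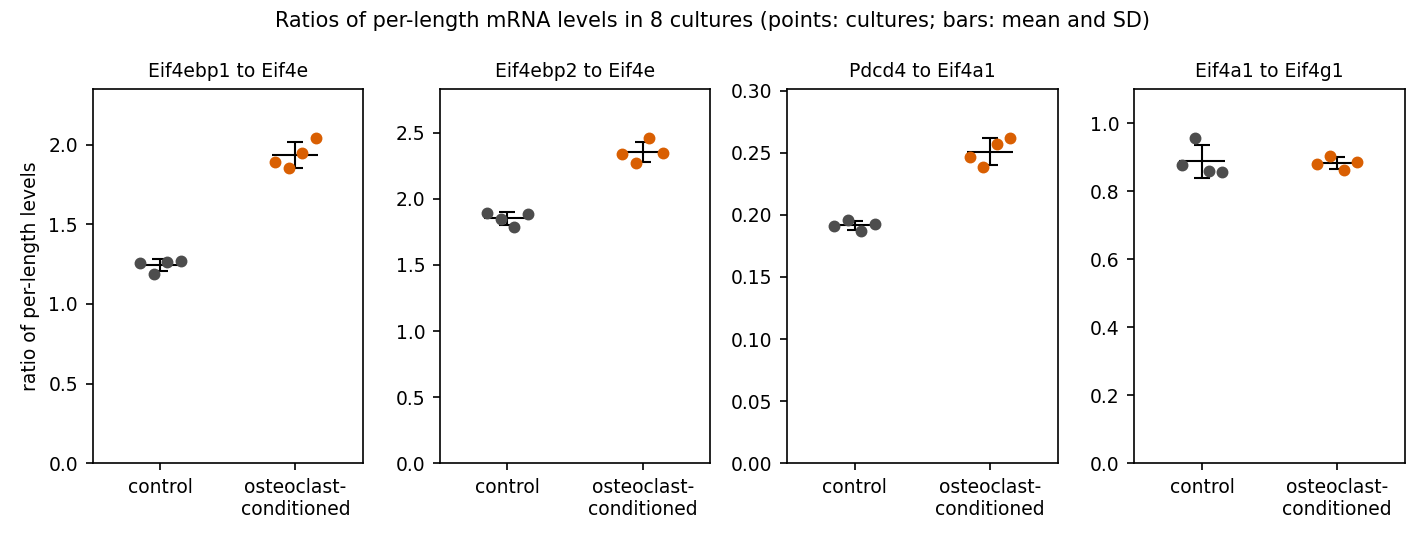
Ratios of per-length mRNA levels (y axes, from 0) in each culture, by medium; points are cultures and bars the mean and SD. The ratios of Eif4ebp1 and Eif4ebp2 to Eif4e and of Pdcd4 to Eif4a1 are higher in all 4 conditioned cultures, and that of Eif4a1 to Eif4g1 overlaps between media.

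Measured paralogs did not follow the members one for one. Eif4e2, a cap-binding protein that does not form eIF4F, had 121 ± 2.57 and 118 ± 1.98 normalised CPM (log2 fold change -0.03, SE 0.03, adjusted p = 0.481, edgeR). Eif4g2, a scaffold without the eIF4E-binding part, had 1523 ± 37.3 and 1531 ± 24.4 (adjusted p = 0.851, edgeR), and Eif4g3 had 250.4 ± 16.7 and 245 ± 5.19 (adjusted p = 0.570, edgeR). Without control replicate 2, Eif4g3 passed the test with a log2 fold change of -0.08 (adjusted p = 0.0242, edgeR). Eif4a2, the paralogous helicase, fell from 176 ± 10.1 to 142 ± 9.21 (log2 fold change -0.31, SE 0.05, adjusted p = 0.000259, edgeR), a larger estimate than that of Eif4a1. Of its exons, 13.3% overlap other annotated genes, among them small RNAs on the same strand (Snora81 and Snord2) and Rfc4 on the opposite one. Rps6kb2, which encodes S6 kinase 2, was lower, at 17.4 ± 1.54 against 19.9 ± 1.61 (log2 fold change -0.19, SE 0.07, adjusted p = 0.0412, edgeR), with overlapping samples. Its call was lost without control replicate 1 or 3 or conditioned replicate 1, 2 or 3 (adjusted p in edgeR from 0.0821 to 0.158) and with DESeq2 (adjusted p = 0.0952), and 23.7% of its exons are shared with Coro1b and Ptprcap on the other strand. Differences between a member's change and its paralog's were not tested. Eif4e3 had 0 counts in every sample and lies wholly inside Gm20696, so its counts give no measure of it.

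Of 76 other genes of the pathway in 10 lists, 70 were tested and 29 had an adjusted p under 0.05 (41.4%, against 30.5% of all tested genes), 18 higher and 11 lower, with a median log2 fold change of 0.02 beside -0.01 for all. The share of all tested genes was not matched for expression level here or for the single lists below. With library totals as the only scaling the split was 15 higher and 14 lower. Fewer genes were called lower under other settings, with 5 left without conditioned replicate 1, 6 without control replicate 1 or conditioned replicate 2, and 7 without control replicate 3 or conditioned replicate 3 or with DESeq2, while 15 to 18 higher calls were made in each of these. The 6 genes not tested were Larp6, with 9 counts in all, and Eif4e3, Eif4ebp3, Eif4enif1, Gigyf1 and Eif3m, which had 0 counts and lie wholly inside other listed genes. None of the 70 passed the edgeR test against 1.2-fold, and 0 had an unadjusted p under 0.05 in it.

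Upstream of the members, 2 of 9 genes of mTORC1 and its TSC brake were higher and 0 lower. That was 22.2%, against 30.5% of all tested genes. Mtor, the kinase, went from 646 ± 6.48 to 704 ± 10.9 normalised CPM (log2 fold change 0.13, SE 0.02, adjusted p = 0.000236, edgeR). Tsc2, which restrains mTORC1, went from 109 ± 1.03 to 118 ± 2.81 (log2 fold change 0.12, adjusted p = 0.00343, edgeR). Among 7 relatives and substrates of S6 kinase, 3 were higher and 2 lower with edgeR (71.4% called). With DESeq2, 3 of these 7 genes were called, and Rps6kb2 was not. Eef2k, the kinase that inactivates elongation factor eEF2, rose from 165 ± 6.07 to 193 ± 3.44 (log2 fold change 0.23, adjusted p = 7.16e-07, edgeR). Pdpk1, which phosphorylates S6 kinase, rose from 146 ± 2.28 to 165 ± 3.73 (0.17 on the log2 scale, adjusted p = 2.66e-05, edgeR). Of the 2 MNK kinases, which phosphorylate eIF4E, Mknk1 rose from 60.7 ± 4.22 to 72.2 ± 4.96 (log2 fold change 0.25, SE 0.05, adjusted p = 0.000669, edgeR) and Mknk2 did not pass the test. Genes on the opposite strand share 7.20% of the exons of Tsc2 and 5.78% of those of Mknk1. Of 5 genes for the turnover or dephosphorylation of 4E-BP1 and PDCD4, the phosphatase gene Ppm1g was called lower (log2 fold change -0.07, adjusted p = 0.0455, edgeR). That call was lost without control replicate 1, 3 or 4 or conditioned replicate 1, 2 or 3 (adjusted p in edgeR from 0.0896 to 0.143) and with no filter on low counts (adjusted p = 0.0917, edgeR).

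Calls among relatives of the cap-binding machinery went in both directions, and those among poly(A)-binding partners were all higher. Among 8 tested relatives of the cap-binding machinery, 1 was called higher and 2 lower (37.5%, against 30.5% of all tested genes). Cyfip2, a subunit of the actin-regulating WAVE complex and paralog of an eIF4E-binding protein, rose from 896 ± 5.46 to 1058 ± 22.4 normalised CPM (log2 fold change 0.24, adjusted p = 1.07e-08, edgeR). The gene of that eIF4E-binding protein, Cyfip1, did not pass the test (-0.02, adjusted p = 0.669, edgeR). Eif4a2 fell as above, and Gigyf2, a partner of Eif4e2, was called lower (-0.09, adjusted p = 0.0221, edgeR). The Gigyf2 call was lost without control replicate 1 or 3 or conditioned replicate 1 or 2 (adjusted p in edgeR from 0.0541 to 0.0764) and with DESeq2 (adjusted p = 0.0508). Of 5 poly(A)-binding partners 3 were higher and 0 lower (60.0% called), and Paip1 and Paip2 did not pass the test. Pabpc1, the poly(A)-binding protein that contacts eIF4G, rose from 5948 ± 88.8 to 6605 ± 93.3 (log2 fold change 0.15, adjusted p = 1.93e-05, edgeR), and Pabpc4 rose from 479 ± 6.72 to 520.2 ± 6.38 (0.12, adjusted p = 0.00043, edgeR). Paip2b, an inhibitor of that protein, was called higher (0.13, adjusted p = 0.0448, edgeR), a call lost without control replicate 1, 3 or 4 or any 1 conditioned replicate (adjusted p in edgeR from 0.0573 to 0.141), with library totals as the only scaling (adjusted p = 0.0904, edgeR) and with DESeq2 (adjusted p = 0.108). Of 5 tested La-related genes other than Larp1, edgeR called 0 and DESeq2 0, with 2 at an unadjusted edgeR p under 0.05.

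Downstream of cap recognition, 2 of 13 tested eIF3 subunits were higher and 0 lower (15.4% called, against 30.5% of all tested genes). These were Eif3c, at 677 ± 20.97 and 755 ± 14.7 normalised CPM (log2 fold change 0.16, adjusted p = 3.73e-05, edgeR), and Eif3f (0.11, adjusted p = 0.00282, edgeR). Of 9 genes of scanning and subunit joining 5 were lower and 1 higher (66.7% called). Eif1a fell from 138 ± 4.08 to 122 ± 2.95 (log2 fold change -0.17, adjusted p = 9.04e-05, edgeR) and Eif1ax had a log2 fold change of -0.14 (adjusted p = 0.000746, edgeR), both encoding eIF1A, whereas Eif1, a guard of start-codon choice, rose from 176 ± 5.72 to 197 ± 3.58 (0.17, adjusted p = 6.38e-05, edgeR). Eif1a and Eif1ax are near-identical copies, so their reads could be split between them. Of 7 elongation factor genes 5 were higher and 1 lower (85.7% called). Eef2, the translocase, led with a rise from 6329 ± 135 to 7286 ± 145 (log2 fold change 0.20, SE 0.03, adjusted p = 3.14e-07, edgeR). Eef1a1 rose from 13203 ± 339 to 14195 ± 297 (0.10, adjusted p = 0.00259, edgeR). Eef1e1, a part of the synthetase complex that does not act in elongation, was the lower one (-0.16, adjusted p = 0.0355, edgeR), and its call was lost without any 1 replicate other than control replicate 4 (adjusted p in edgeR from 0.0514 to 0.0953), with no filter on low counts (adjusted p = 0.0661, edgeR) and with DESeq2 (adjusted p = 0.121).

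**Figure D5:**
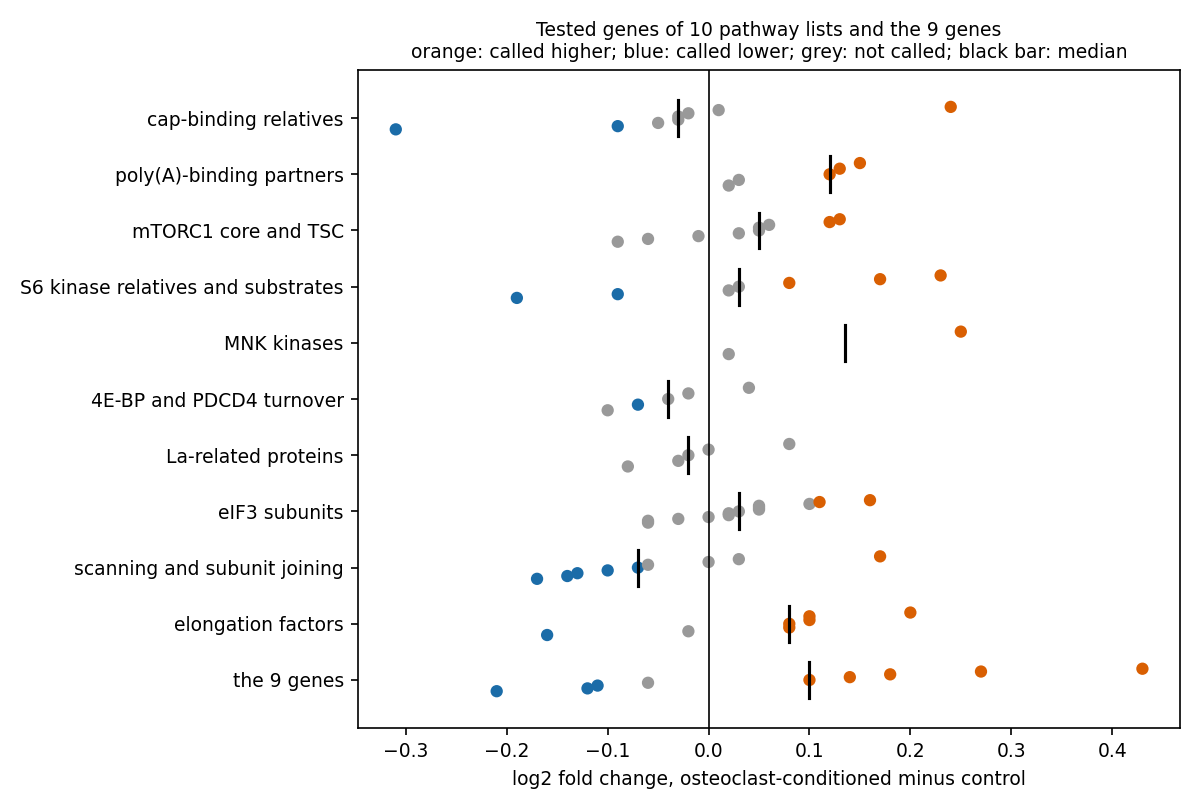
Log2 fold change (x axis) of each tested gene of 10 pathway lists and of the 9 genes (rows); colour gives the call and black bars the medians. Elongation factors and poly(A)-binding partners lie mostly to the right, scanning and subunit-joining factors mostly to the left, and the 9 genes spread to both sides.

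The genes whose profiles lay nearest to that of Eif4ebp1 were found as the smallest Euclidean distance of mean-centred log2 CPM over the 8 samples, among 9031 other genes averaging 5 CPM or more. Among the nearest were Ak5 (distance 0.0778), Afap1 (0.0914), Herc2 (0.101) and Pmepa1 (0.102). Herc2, a large ubiquitin ligase, went from 95.7 ± 3.74 to 128 ± 5.29 normalised CPM. Those nearest to Pdcd4 were Fbxl20 (0.0572), Abhd15 (0.0743), Edem1 (0.0931), Osbpl8 (0.0938) and Txnip (0.0958). Txnip, a regulator of glucose uptake and redox balance, went from 151 ± 2.76 to 180.4 ± 2.36. All 9 named here were called higher and did not overlap between media, which their choice by distance largely fixes.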

How the data were processed

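Bulk RNA from 8 cultures was sequenced, 4 per medium. Per the labels' protocols, RNA came from a column kit and libraries from the SureSelect HS2 kit. Per the submitters' processing notes, STAR 2.7.5a and featureCounts 2.0.1 were used with build mm10; annotation, strand setting and treatment of multi-mapping reads are not given in the sources used here. The authors deposited raw counts per Ensembl gene ID, with 0 columns unmatched to a sample. Symbols, positions and exon lengths came from GENCODE M21 (GRCm38), which matched 21817 IDs.

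Counts of all 8 samples were fitted in edgeR 4.0.16 (R 4.3.3): filterByExpr, TMM scaling, robust glmQLFit and glmQLFTest with medium as the only term, and Benjamini-Hochberg adjustment over all 10729 genes at 0.05. Standard errors are the change divided by the square root of F. The test was also run on counts simulated as independent cultures with the spread estimated from these data, which cannot check whether the real cultures were independent. Log2 CPM used a prior count of 2. Genes named were all 9 members, their 7 paralogs, up to 3 called genes with the largest change per list, and the 5 nearest profiles to Eif4ebp1 and to Pdcd4; 1 of these and 1 B-lineage marker are not reported here. Members and lists were chosen with earlier results of these data known. Alternatives were other scalings, no filter, DESeq2 1.42.0, the replicate block, a 1.2-fold test and leaving out each sample. Total counts per sample (15391754 to 21637966) set a floor of 3 counts at 0.138 to 0.194 CPM. Python 3.11.15 and matplotlib 3.10.9 made tables and figures.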

Additional observations from a re-analysis of the deposited data

Results flagged for a closer look

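In each medium the highest or lowest culture of every named gene with counts was compared with the other cultures by Dixon's test, which divides its gap from the next culture by the whole range. Eif4ebp3 and Eif4e3, with 0 counts throughout, gave no comparison. Of 86 groups of 4 cultures, 3 were above the 95% critical value, where chance gives about 4.3. Pdcd4 was 109.1 normalised CPM in control replicate 2 and 99.8 to 101 in the other control cultures (ratio 0.866). Osbpl8 and Txnip, picked for profiles close to that of Pdcd4, were high in the same culture, at 142.5 against 135 to 136 (0.958) and 155 against 149 to 150 (0.895). Both were selected for similarity to Pdcd4 over all cultures, control replicate 2 included.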

How the results depend on the processing

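The 9 genes kept their direction under all 14 alternatives, and 8 of them passed 0.05, 5 higher and 3 lower, under each alternative other than the test against a 1.2-fold change. That test called 1 of the 9 genes (Eif4ebp1), 0 of the pathway list genes (0 also at an unadjusted p under 0.05) and 227 of all genes. The log2 fold change of Eif4ebp1 ranged from 0.41 to 0.44, that of Pdcd4 from 0.24 to 0.30 and that of Eif4e from -0.23 to -0.20; Rps6kb1 passed under no alternative (-0.08 to -0.04, adjusted p from 0.0814). Scaling by library totals moved the median gene by -0.02 and the share of calls that were higher from 51.6% to 40.7% over all genes; it gave Eif4g2 a log2 fold change of -0.01 in place of 0.01, neither past the threshold. Leaving out 1 sample left 8 of the 9 genes called, from 20 to 29 pathway genes (15 to 18 higher and 5 to 11 lower) and from 2635 to 3578 genes in all. With the replicate block the test called 8 of the 9 genes, 29 pathway genes and 3446 genes; same-numbered cultures did not deviate together (correlations from -0.0507 to 0.143, with 1 of 4 numbers matching best with itself), so the numbers were not taken as pairs. The SE of the log2 fold change was 0.07 for Rps6kb2, with 275 counts in its lowest sample, and 0.02 for Eif4b, with 17545; the parts of depth and of spread between cultures in this were not tested.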
